A study of Macaca mulatta with 24 samples.

Results

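The comparison described here is the change of the wood smoke effect between the end of a repeated exposure and the end of a recovery period in airway epithelial cultures of rhesus macaques. The smoke effect of a gene was its level in smoke minus its level in filtered air, on a log2 scale and within an animal. The change was the smoke effect after recovery minus the smoke effect at 5 days. It was fitted over 16 of the 24 libraries of the series and over 13795 of the 35432 genes in the table, kept where 4 or more of the 16 libraries held 10 or more normalized counts. A positive change therefore means that the level in smoke relative to air was higher after recovery than at 5 days. A negative change means that it was lower, and neither says which arm moved. Below, a gene that rose or fell is one whose smoke effect did so, unless a change over time in air or smoke is named.

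Primary tracheobronchial epithelial cells came from 4 adult female rhesus macaques, labelled S1 to S4, aged 5463, 2930, 2238 and 1128 days and weighing 5.59, 7.17, 4.56 and 3.18 kg. They were differentiated at an air-liquid interface, where the cell layer is fed from below and meets air above, in a medium that contained retinoic acid. The 4 groups were filtered air for 5 days, diluted whole wood smoke for 5 days, and the same exposures followed by 7 days of standard culture. Exposure lasted 6 hours on each day. Each group held 1 poly-A RNA library from each animal, so the 4 animals are the replicates and each animal was its own control. The recovered cultures were older than the 5-day cultures in both arms, and the air arm carries that difference in age. The model holds epithelium alone, with no tissue around it.

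The airway surface is a pseudostratified epithelium in which basal cells divide and renew the ciliated and secretory cells above them. Wood smoke carries polycyclic aromatic hydrocarbons, which bind the aryl hydrocarbon receptor, a transcription factor that induces the enzymes that oxidise them. Smoke also holds reactive compounds that damage proteins, and cells answer misfolded protein with heat shock proteins in the cytosol and with chaperones in the endoplasmic reticulum (ER).

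The libraries carried markers of airway epithelium. KRT5, a keratin of basal cells, ranged from 12200 to 46100 normalized counts and FOXJ1, the transcription factor of motile cilia, from 1930 to 10300. The mucin gene MUC5B ranged from 1.11 to 8520, and the club cell secretoglobin SCGB1A1 was low, from 3.43 to 47.8. CDH5 of endothelium and LUM of fibroblasts were at 0 in all 16 libraries, and PTPRC of leukocytes and DCN of fibroblasts were at 0 in 14 of them. Other markers of these cell types were present: the endothelial genes VWF (50.9 to 121) and PECAM1 (11.8 to 180) and the fibroblast genes PDGFRA (340 to 685) and COL1A1 (0.982 to 33.9) were above 0 in all 16. One library, air at 5 days in S1, was unlike the rest. Its median correlation with the other libraries was 0.861 against 0.932 to 0.953, its share of mitochondrial transcripts was 8.49% against 2.95 to 6.96%, and its approximate depth was 9.46 M reads against 10.1 to 15.9 M. Results are therefore given with and without S1.

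With all 4 animals, 88 of 13795 genes (0.638%) passed an adjusted p of 0.05 and are termed called (limma with animal as a block, Benjamini-Hochberg adjustment over all genes tested). The smoke effect rose in 38 genes (0.275%) and fell in 50 (0.362%), and each of the 88 had the same sign in 4 of 4 animals. That agreement follows largely from choosing the genes on these same 4 animals and is not separate support. The changes ranged from 0.64 to 2.44 on the log2 scale among the genes that rose and from -3.39 to -0.56 among those that fell, while the median over all genes tested was -0.00466. Without S1, 933 genes (6.76%) were called, 460 higher (3.33%) and 473 lower (3.43%). All 88 were among the 933 with the same sign, and in S1 itself 699 of the 933 had the sign seen in the other animals. The like share over all genes was not determined. Leaving out only the 5-day air library of S1 gave 1251 called genes (9.07%), again with all 88 among them. When that library was kept and S2, S3 or S4 was left out, limma called 2, 1 and 0 genes, with 1124 genes at an unadjusted p under 0.05 in the last case.

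In their medians the called genes crossed 0, with smoke on one side of air at 5 days and on the other after recovery. Among the 38 that rose, the median smoke effect was -0.54 at 5 days and 0.53 after recovery. Among the 50 that fell, it was 0.52 at 5 days and -0.52 after recovery. For smoke against air at 5 days, 3 of the 38 and 2 of the 50 were also called (6 of all genes, 0.0435%), and after recovery 11 and 13 (85 of all genes, 0.616%). The change can also be read as the change over time in smoke minus that in air. Read so, the larger medians were in air: the 38 genes had a median of -0.94 over time in air and 0.18 in smoke, and the 50 had 0.85 in air and -0.21 in smoke. Over all genes, 2078 (15.1%) were called over time in air and 523 (3.79%) in smoke. These values use the same 16 libraries as the change itself and describe where it lay.

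**Figure D1:**
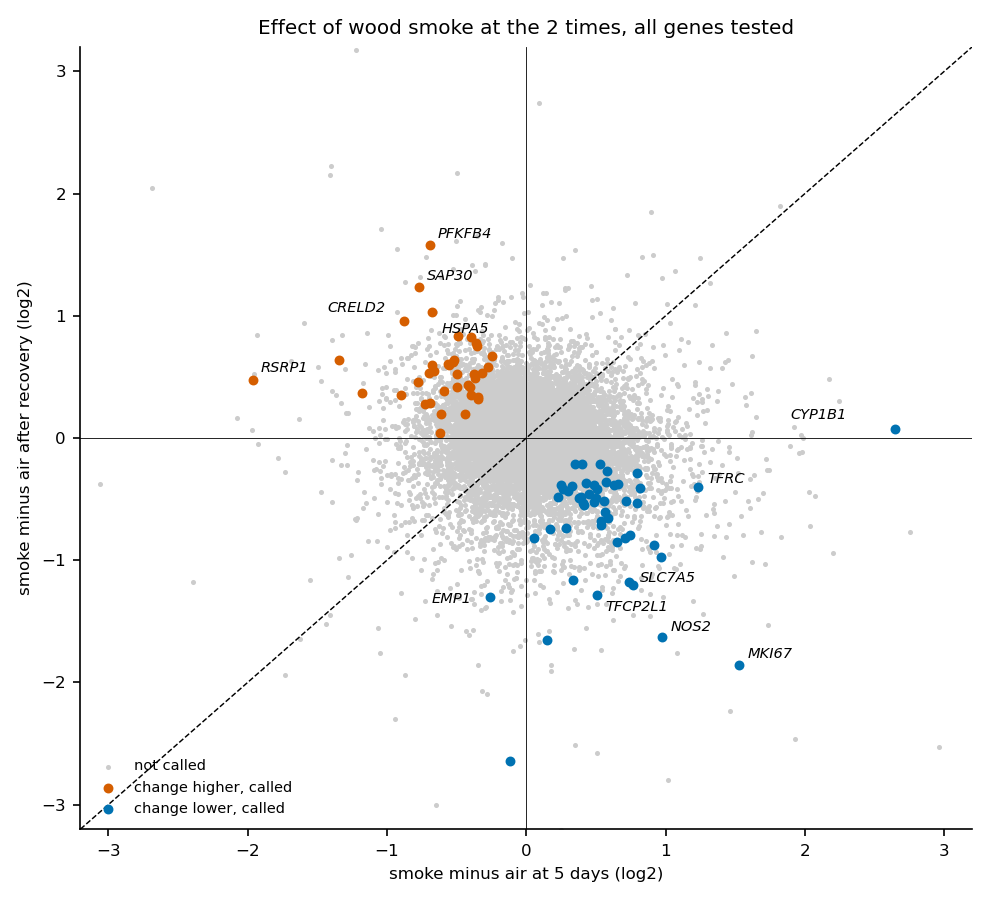
Smoke effect at 5 days (horizontal axis, log2) against the smoke effect after recovery (vertical axis, log2) for the genes tested, with 1 gene outside the axes. Points above the dashed line of equal effects have a positive change. The called genes lie mainly in the upper left (38 higher, orange) and lower right (50 lower, blue) corners.

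The smallest adjusted p was that of RSRP1 (ENSMMUG00000002970), which encodes an arginine- and serine-rich protein of the splicing factor type. RSRP1 stood at 674, 573, 482 and 719 normalized counts in air at 5 days (S1 to S4) and at 121, 141, 152 and 218 in smoke. After recovery it stood at 230, 169, 231 and 237 in air and at 319, 286, 271 and 325 in smoke. The groups did not overlap at either time, with smoke below air at 5 days and above it after recovery. The smoke effect was -1.96 at 5 days (adjusted p = 0.000182) and 0.48 after recovery (adjusted p = 0.183), and the change was 2.44 ± 0.22 (SE, adjusted p = 0.000811). Without S1 it was 2.28 (adjusted p = 0.000168).

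Other RNA-binding genes moved in both directions. EIF4A2, an RNA helicase of translation initiation, had 5576, 5498, 5500 and 5232 normalized counts in air at 5 days and 3162, 3572, 3425 and 3029 in smoke. After recovery EIF4A2 had 2635, 2529, 3234 and 2630 in air and 3231, 2882, 4149 and 3198 in smoke, where the groups overlapped although smoke was higher in 4 of 4 animals. Its smoke effect rose by 1.01 ± 0.14 (adjusted p = 0.00993). HNRNPDL, which encodes a heterogeneous nuclear ribonucleoprotein, ran the other way, with 650, 677, 862 and 695 in air and 1448, 1137, 1310 and 1121 in smoke at 5 days. Its recovered cultures held 1424, 1000, 1515 and 1331 in air and 1130, 919, 1176 and 1072 in smoke, and the smoke effect fell by 1.08 ± 0.15 (adjusted p = 0.00993). EIF4A2 and HNRNPDL were each called at 5 days and not after recovery.

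Of 20 nuclear speckle and RNA-binding genes tested, the smoke effect rose in 4 and fell in 2, against 0.275% and 0.362% of all genes. Besides RSRP1 and EIF4A2, NKTR (0.97) and HNRNPH3 (0.66) rose, and HNRNPD (-0.91) fell with HNRNPDL. The median change of the list was 0.12, with 12 genes above 0 and 8 below, so its called members did not share a direction. Without S1, 5 rose and 4 fell, against 3.33% and 3.43% of all genes.

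CYP1B1 (ENSMMUG00000013945) encodes a cytochrome P450 that oxidises aromatic hydrocarbons and is a known target of the aryl hydrocarbon receptor. It had 35.5, 65.1, 31.0 and 38.7 normalized counts in air at 5 days and 303, 148, 311 and 334 in smoke. After recovery the air cultures held 322, 465, 367 and 381 and the smoke cultures 464, 627, 304 and 291. Smoke lay above air without overlap at 5 days, while after recovery the groups overlapped and smoke was higher in 2 of 4 animals. The smoke effect was 2.65 at 5 days (adjusted p = 0.011) and 0.07 after recovery (adjusted p = 0.952), and it fell by 2.57 ± 0.44 (adjusted p = 0.0259). The change was smallest in S2, at -0.74, against -2.53, -3.56 and -3.46 in S1, S3 and S4. In air, CYP1B1 rose by 3.19 between the times (adjusted p = 0.000165), and in smoke the difference was 0.62 (adjusted p = 0.322). The recovered air cultures lay within or above the range that the smoke cultures held at 5 days.

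No other gene on the receptor's list was called with all 4 animals. Of 8 tested, 1 fell (CYP1B1) and 0 rose, against 0.362% and 0.275% of all genes, and the median change was -0.16. AHRR, the receptor's repressor, had a change of 0.44 (adjusted p = 0.131), and without S1 it rose by 0.47 (adjusted p = 0.0292). CYP1A1, the classical target, was too low to test: at 5 days it had 0, 1.05, 0 and 0 in air and 7.86, 2.99, 2.87 and 3.15 in smoke. After recovery CYP1A1 had 1.09, 0, 0 and 1.86 in air and 6.39, 0, 0.943 and 0 in smoke.

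ER chaperones and stress genes were uniform in sign. All 18 genes tested of this list had a change above 0, against 49.5% of all genes tested, and the smoke effect rose in 6 of them and fell in 0, beside 0.275% and 0.362% of all genes. The median change was 0.56, made of a median smoke effect of -0.26 at 5 days and 0.45 after recovery. The medians in S1 to S4 were 0.55, 0.63, 0.55 and 0.68. Without S1, 12 of the 18 rose (3.33% of all genes did so) and the median was 0.60.

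HSPA5 (ENSMMUG00000005217), the ER Hsp70 also called BiP, had 20480, 26330, 16660 and 24450 normalized counts in air at 5 days and 19950, 19190, 13840 and 15460 in smoke. After recovery HSPA5 had 13910, 9668, 10150 and 10560 in air and 20120, 20860, 14430 and 19420 in smoke. The recovered air cultures were the low group, below every smoke culture of the same time. The smoke effect was -0.36 at 5 days and 0.76 after recovery (adjusted p = 0.0309), and it rose by 1.11 ± 0.19 (adjusted p = 0.0225).

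PDIA4, a protein disulfide isomerase, had 6631, 5242, 4744 and 7243 in air and 4811, 3573, 3691 and 4058 in smoke at 5 days. Its recovered cultures held 3249, 1701, 2378 and 2720 in air and 4522, 3268, 3077 and 4097 in smoke, so smoke was lower in 4 of 4 animals and then higher in 4 of 4. The smoke effect of PDIA4 rose by 1.15 ± 0.16 (adjusted p = 0.00993). CRELD2, an ER stress-inducible protein, had 2020, 623, 504 and 884 in air and 793, 398, 380 and 405 in smoke at 5 days. CRELD2 then had 208, 117, 134 and 136 in air and 410, 250, 219 and 282 in smoke after recovery, and its smoke effect rose by 1.84 ± 0.25 (adjusted p = 0.00993). The highest value of CRELD2 was that of the 5-day air library of S1, and without S1 the change was 1.67.

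HYOU1, an ER chaperone of the Hsp110 type, had 4701, 3709, 2874 and 4072 in air and 4054, 2894, 2572 and 2810 in smoke at 5 days. After recovery it had 1966, 1547, 1424 and 1662 in air and 3023, 2196, 1972 and 2395 in smoke, where every smoke culture lay above every air culture. Its change was 0.85 ± 0.12 (adjusted p = 0.00993). HSP90B1, the ER Hsp90, and MANF, a secreted ER stress factor, completed the called members, with changes of 0.85 and 1.13. SDF2L1 (1.44, adjusted p = 0.105), DNAJB11 (0.60, adjusted p = 0.0878) and the stress regulators XBP1 (0.52, adjusted p = 0.194) and DDIT3 (0.70, adjusted p = 0.398) were above 0 and were not called.

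**Figure D2:**
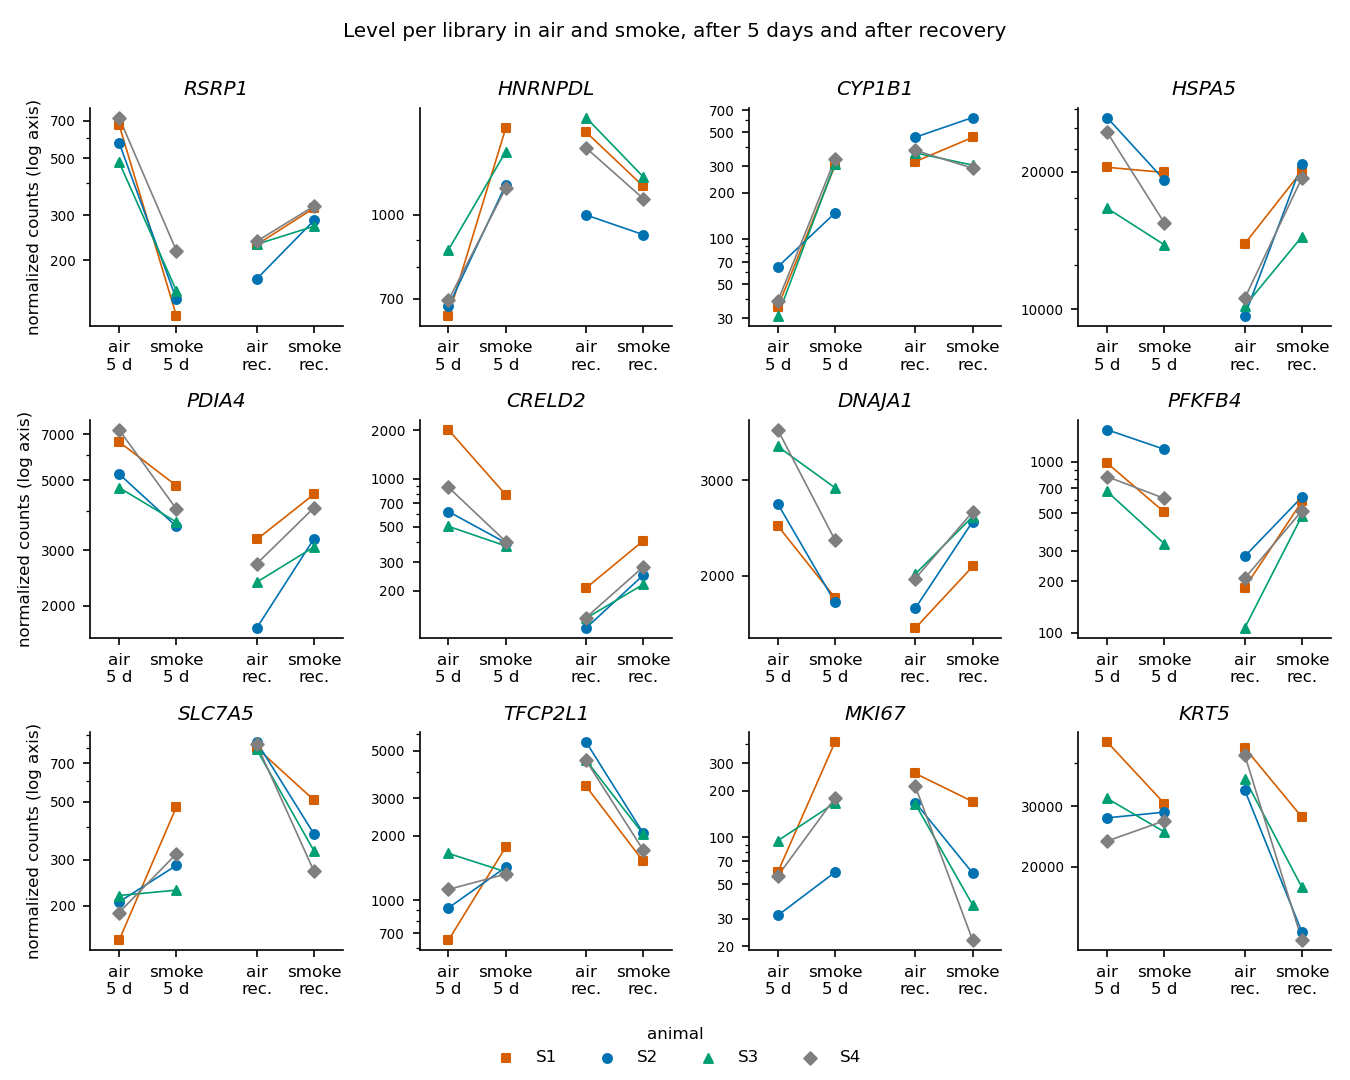
Normalized counts (log axes) of 12 genes in each library, in air and smoke at 5 days and after recovery (rec.), with a line joining the air and smoke libraries of an animal. For RSRP1, HSPA5, PDIA4, CRELD2, DNAJA1 and PFKFB4 the lines fall at 5 days and rise after recovery in 4 of 4 animals, and for HNRNPDL, SLC7A5 and MKI67 they do the reverse. KRT5 was not called with all 4 animals.

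Heat shock genes and partners of HSP90 showed a like but less uniform pattern. Of 18 tested, 13 had a change above 0, against 49.5% of all genes, and the smoke effect rose in 4 and fell in 0, against 0.275% and 0.362%. The median was 0.59, from -0.27 at 5 days and 0.22 after recovery. DNAJA1, an Hsp40 partner of Hsp70, had 2473, 2715, 3464 and 3718 in air and 1821, 1786, 2905 and 2326 in smoke at 5 days. After recovery DNAJA1 had 1601, 1742, 2015 and 1976 in air and 2080, 2517, 2571 and 2623 in smoke, without overlap, and the change was 0.91 ± 0.15 (adjusted p = 0.0198).

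FKBP4, an immunophilin that binds HSP90, had 3291, 1877, 1795 and 1964 in air at 5 days against 1137, 1240, 1034 and 1238 in smoke. After recovery FKBP4 had 1090, 914, 1135 and 1005 in air against 1254, 1212, 1325 and 1490 in smoke. Smoke lay below air and then above it, without overlap, and the change was 1.25 ± 0.22 (adjusted p = 0.0314; without S1 1.09). HSPA8, the constitutive Hsp70 (0.68), and SERPINH1, the collagen chaperone of the ER (0.81), were the other called members. HSPA8 has near-identical copies in primate genomes, and how reads shared with them were counted is unknown here, so its value is uncertain. Small heat shock proteins were not called and differed in sign: HSPB8 had a change of -0.51 (adjusted p = 0.578), CRYAB of -0.30 (adjusted p = 0.523) and HSPB1 of 0.83 (adjusted p = 0.324). Without S1, 10 members rose (3.33% of all genes did so) and BAG3, a co-chaperone of Hsp70, fell (-0.74, adjusted p = 0.00658).

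**Figure D3:**
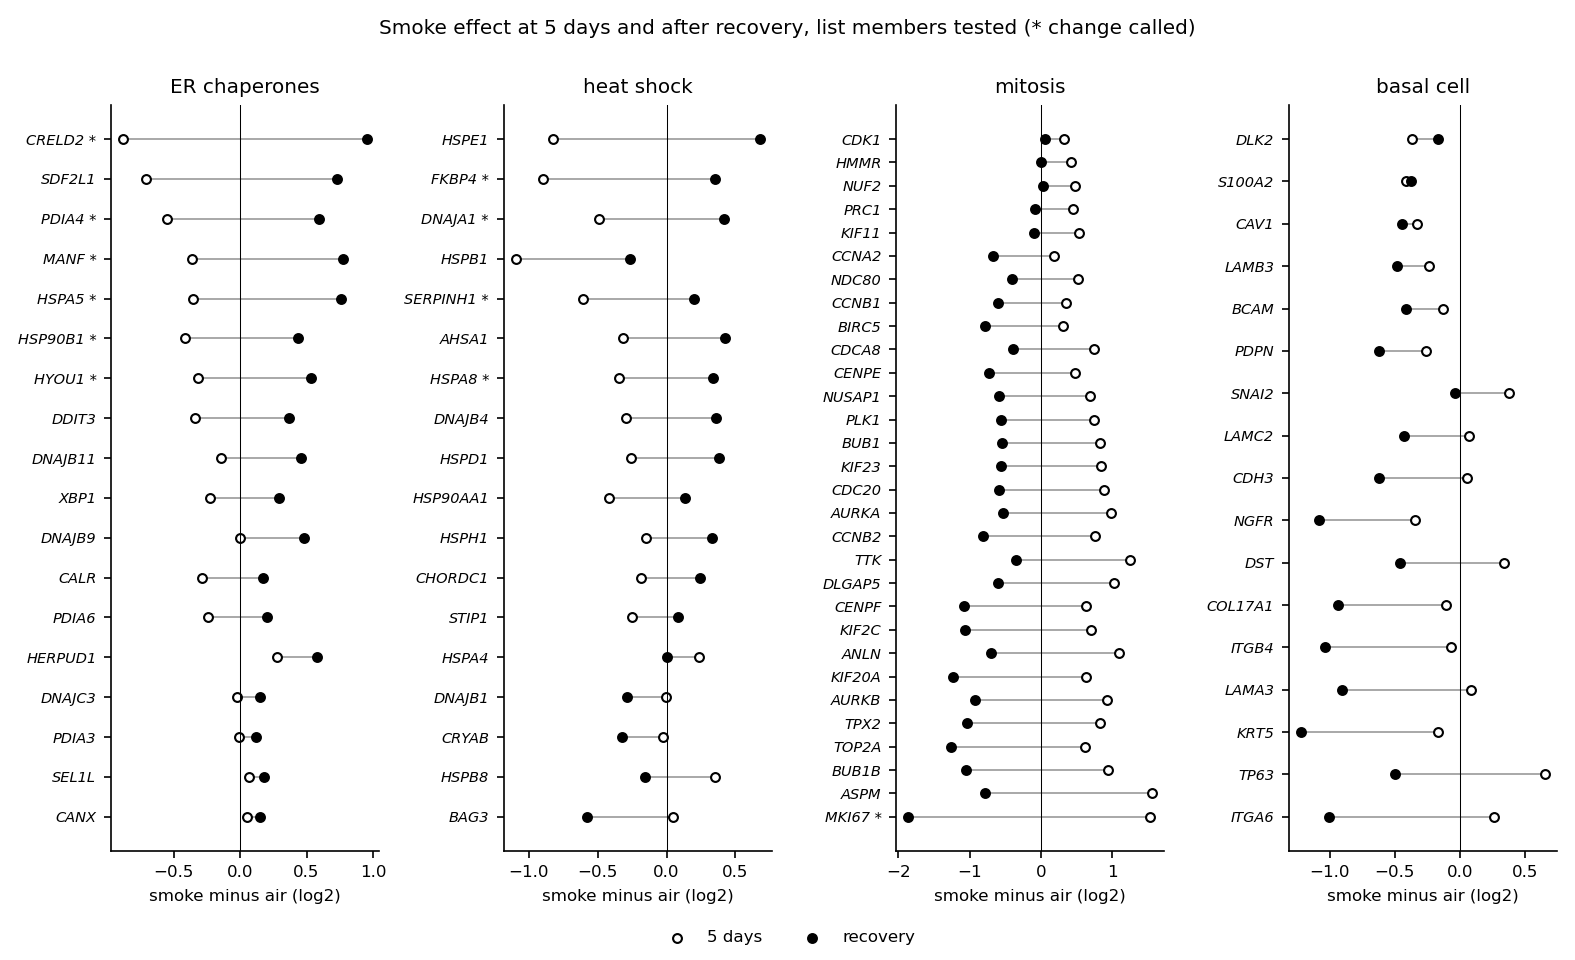
Smoke effect (log2) at 5 days (open circles) and after recovery (filled circles) for each tested gene of 4 lists, ordered by change, with called genes marked by an asterisk. All 18 ER chaperone genes have the filled circle to the right of the open one, and all 30 mitosis genes have it to the left.

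Genes of the hypoxia response and glycolysis also had positive changes. Of 25 tested, 24 were above 0, against 49.5% of all genes, and the median change was 0.60. The smoke effect rose in 2 and fell in 0, against 0.275% and 0.362% of all genes. BNIP3 is counted under 2 identifiers in the table. The median smoke effect was -0.56 at 5 days and 0.07 after recovery, so here the list went from below air to near it. The medians in the animals were spread, from 0.13 in S2 to 1.05 in S1, and without S1 the median was 0.46 with 7 called higher, against 3.33% of all genes.

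PFKFB4 (ENSMMUG00000000591), whose enzyme makes the activator of the glycolytic step of phosphofructokinase, carried the larger of the called changes. It had 986, 1545, 672 and 821 in air and 508, 1186, 332 and 612 in smoke at 5 days. After recovery it had 184, 280, 106 and 208 in air and 588, 624, 484 and 518 in smoke. PFKFB4 fell by 2.38 over time in air, while in smoke its difference over time was -0.10. The smoke effect was 1.58 after recovery (adjusted p = 0.0059) and rose by 2.27 ± 0.27 (adjusted p = 0.00993). EGLN3, an oxygen-sensing prolyl hydroxylase that is itself induced by hypoxia, had 14920, 21110, 13020 and 12460 in air and 8064, 17560, 7550 and 10060 in smoke at 5 days. EGLN3 then had 10520, 11350, 8947 and 9442 in air and 14770, 16170, 14850 and 15210 in smoke, without overlap, and rose by 1.17 ± 0.23 (adjusted p = 0.045). SLC16A3, which exports lactate, is not on this list and rose by 1.24 ± 0.23 (adjusted p = 0.0334). CA9, a carbonic anhydrase and a classical hypoxia gene, had a change of 0.07 (adjusted p = 0.936).

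Among the genes whose smoke effect fell were transporters that bring amino acids and iron into the cell. SLC7A5 (ENSMMUG00000052851), which imports large neutral amino acids, had 148, 207, 219 and 188 in air and 477, 285, 229 and 316 in smoke at 5 days. After recovery SLC7A5 had 801, 844, 790 and 827 in air and 506, 376, 324 and 271 in smoke. The groups did not overlap at either time and changed places, and the change was -1.92 ± 0.30 (adjusted p = 0.0198). SLC7A1, which imports cationic amino acids, had 192, 267, 276 and 332 in air and 614, 383, 316 and 452 in smoke at 5 days. SLC7A1 later had 1102, 841, 731 and 667 in air and 660, 443, 384 and 413 in smoke, and its change was -1.53 ± 0.31 (adjusted p = 0.0492).

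TFRC, the transferrin receptor, had 327, 705, 451 and 455 in air and 1637, 1152, 868 and 881 in smoke at 5 days. After recovery TFRC had 1981, 1629, 1383 and 1193 in air and 1635, 1312, 1120 and 736 in smoke, lower in 4 of 4 animals with overlapping groups. The change of TFRC was -1.63 ± 0.32 (adjusted p = 0.0476). The glycine transporter SLC6A9 (-1.54) also fell, and so did GARS1 (-0.93), the glycyl-tRNA synthetase. GARS1 had 679, 638, 673 and 632 in air and 1103, 857, 962 and 828 in smoke at 5 days, and 1449, 1522, 1449 and 1116 in air and 1113, 1167, 945 and 911 in smoke after recovery. The list of ATF4 and amino acid stress genes did not move as a whole, with a median change of 0.02. Of its 18 genes, 1 fell (SLC7A5) and 0 rose, against 0.362% and 0.275% of all genes. Without S1 the median was -0.10, with 2 called in each direction, against 3.33% higher and 3.43% lower of all genes.

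Mitosis genes had the most negative median of the 27 lists. All 30 tested were below 0, while 49.5% of all genes were above it. The median was -1.43, from 0.72 at 5 days and -0.60 after recovery. Of the 30, 1 was called lower, against 0.362% of all genes. That gene was MKI67 (ENSMMUG00000044121), the proliferation marker Ki-67. It had 59.7, 31.5, 95.0 and 56.5 in air and 410, 59.8, 167 and 180 in smoke at 5 days. Its recovered cultures held 257, 168, 164 and 213 in air and 170, 59.0, 36.8 and 21.8 in smoke. MKI67 was higher in smoke in 4 of 4 animals and then lower in 4 of 4, with overlapping groups at both times, and the change was -3.39 ± 0.67 (adjusted p = 0.0471). TPX2 (-1.87, adjusted p = 0.117) and CENPF (-1.71, adjusted p = 0.127), of the spindle and the kinetochore, were not called.

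CDC25B, the phosphatase that starts mitosis, is not on that list and fell by 1.94 ± 0.32 (adjusted p = 0.0225). CDC25B had 176, 64.2, 60.6 and 108 in air and 349, 110, 88.9 and 325 in smoke at 5 days, and 577, 312, 160 and 445 in air and 410, 152, 91.2 and 149 in smoke after recovery. DNA replication genes had a median change of -0.67, with 20 of 24 below 0 and 0 called. Without S1, 3 of 30 mitosis and 6 of 24 replication genes fell, against 3.43% of all genes. In these bulk cultures, fewer cells of a type and less RNA per cell cannot be told apart. The summed level of the mitosis list was 1110 to 2640 in air and 1360 to 4900 in smoke at 5 days, and 2190 to 2250 in air and 1180 to 1980 in smoke after recovery.

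Genes of basal cells and of their anchorage had negative changes, with the larger smoke effects after recovery. KRT5 (ENSMMUG00000055016) had 46080, 27730, 31590 and 23740 in air and 30520, 28810, 25250 and 27200 in smoke at 5 days. After recovery KRT5 had 44320, 33430, 36080 and 42330 in air and 27860, 12910, 17410 and 12230 in smoke. The groups overlapped at 5 days, and after recovery every smoke culture lay below every air culture. The smoke effect was -0.17 at 5 days (adjusted p = 0.653) and -1.22 after recovery (adjusted p = 0.0112). The change, -1.06 ± 0.24, was not called (adjusted p = 0.07), and without S1 it was -1.38 ± 0.19 (adjusted p = 0.0019). S1 had a change of -0.08, against -1.43, -0.73 and -1.99 in the others.

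Of 17 basal cell genes tested, 15 were below 0 and 0 were called, with a median of -0.68. Without S1 all 17 were below 0 and 7 fell (3.43% of all genes did so), among them the integrin ITGB4 (-1.12, adjusted p = 0.0124) and the laminin LAMA3 (-0.89, adjusted p = 0.0109), which anchor basal cells to the basement membrane. TP63, the transcription factor of basal cells, had a change of -1.15 (adjusted p = 0.355) and without S1 of -0.52 (adjusted p = 0.102). The summed level of the basal list ran from 51500 to 75300 in air and 48900 to 63300 in smoke at 5 days, and from 79600 to 100000 in air and 37000 to 61700 in smoke after recovery. Desmosome and squamous genes, which join the cells to each other, had 14 of 17 below 0, 0 called and a median of -0.44, and 6 fell without S1 (3.43% of all genes did so). PKP1, a desmosomal plakophilin, missed the threshold narrowly (-1.06, adjusted p = 0.0501).

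Matrix and adhesion genes had 25 of 27 below 0, 1 called lower (0.362% of all genes were) and a median of -0.58. Without S1, 7 of 27 fell, against 3.43% of all genes. Fibronectin, FN1, had a change of -1.32 (adjusted p = 0.223), and the basement membrane collagen COL4A2 of -1.33 (adjusted p = 0.0861).

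HAS3, a hyaluronan synthase, fell by 1.80 ± 0.29 in its smoke effect (adjusted p = 0.0201). It had 116, 121, 98.1 and 59.6 in air and 142, 125, 107 and 65.3 in smoke at 5 days, and 511, 532, 324 and 219 in air and 277, 133, 88.6 and 59.7 in smoke after recovery. Smoke was higher than air in 4 of 4 animals at 5 days and lower in 4 of 4 after recovery, with overlapping groups at both times. The membrane protein gene EMP1 had 293, 226, 256 and 315 in air and 252, 248, 153 and 271 in smoke at 5 days, and 750, 810, 577 and 740 in air and 303, 303, 240 and 320 in smoke after recovery. EMP1 fell by 1.04 ± 0.19 (adjusted p = 0.0318), and its smoke effect after recovery was -1.30 (adjusted p = 0.004).

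TFCP2L1, a transcription factor of the grainyhead family found in epithelia, had 649, 920, 1656 and 1123 in air and 1773, 1427, 1358 and 1325 in smoke at 5 days. After recovery TFCP2L1 had 3417, 5506, 4524 and 4510 in air and 1519, 2056, 2034 and 1713 in smoke. The recovered air cultures lay above every other group, and the change was -1.79 ± 0.30 (adjusted p = 0.0225). The receptor tyrosine kinase gene EPHA2 moved the other way and rose by 0.64 ± 0.12 (adjusted p = 0.0328).

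Secretory and ciliated cell genes gave 1 call. Of 19 goblet and club cell genes, 14 were above 0 and 1 rose (0.275% of all genes did so). Their median was 0.36, and 0.08 without S1. The gene that rose was AGR3, a protein disulfide isomerase of the anterior gradient family. Its place on this list does not show that secretory cells carried the change, and the cell type was not tested. AGR3 had 2788, 1832, 1611 and 1665 in air and 1133, 1591, 1438 and 1363 in smoke at 5 days, and 1278, 1284, 1211 and 1437 in air and 1870, 2297, 2221 and 3008 in smoke after recovery. Smoke lay below air and then above it, without overlap, and the change was 1.32 ± 0.26 (adjusted p = 0.0471). Motile cilium genes had a median of 0.20 with 17 of 26 above 0 and 0 called, and FOXJ1 had a change of 0.24. Multiciliogenesis regulators had 12 of 17 below 0, 0 called and a median of -0.75 that was -0.35 without S1. That list holds FOXM1 (-2.01, adjusted p = 0.159) and E2F7 (-1.94, adjusted p = 0.27), which also act in dividing cells.

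For the 13 protein genes of the mitochondrial genome, the median change had opposite signs in S1 and in the rest. It was -0.45 with 0 called, and 0.46 in S1 against -0.51, -0.75 and -0.74 in S2 to S4. Not every gene had this pattern: ND5 and ND4L were below 0 in all 4 animals, at -0.81 each in S1. Without S1 the median was -0.69 and 8 of 13 fell, against 3.43% of all genes. The 5-day air library of S1 was the library with the highest mitochondrial share, and the part of that share in the result was not tested.

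SAP30, a subunit of a histone deacetylase complex, and NOS2, the inducible nitric oxide synthase, stood outside these groups. SAP30 had 176, 190, 133 and 155 in air and 81.2, 146, 67.0 and 101 in smoke at 5 days, and 50.1, 51.2, 54.8 and 83.7 in air and 121, 150, 115 and 178 in smoke after recovery. The smoke effect of SAP30 rose by 2.00 ± 0.28 (adjusted p = 0.00993). NOS2 had 548, 27.4, 63.5 and 111 in air and 944, 43.6, 160 and 246 in smoke at 5 days. After recovery NOS2 had 817, 95.9, 163 and 151 in air and 836, 18.5, 29.3 and 43.0 in smoke. S1 was far above the other animals in all 4 groups, and within each animal the change was negative, from -0.75 in S1 to -3.76 in S3. The smoke effect of NOS2 fell by 2.60 ± 0.53 (adjusted p = 0.0492).

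Several stress and signalling lists had smaller medians and 0 called members with all 4 animals. NRF2 targets, the antioxidant genes, had 12 of 24 above 0 and a median of -0.02. Interferon genes had a median of -0.01 over 18 genes, immediate early genes of -0.03 over 20, cholesterol synthesis genes of -0.06 over 22, and Notch genes of 0.12 over 13. Inflammation genes had a median of 0.19 over 16, tight junction genes of -0.23 over 16 and genes of the EGF receptor and its ligands of -0.27 over 16. Without S1 the tight junction median turned to 0.01, with CLDN3 and CLDN7 among the genes called higher and TJP1 among those called lower, and the EGF receptor median was -0.06 with 0 called. Also without S1, 3 of 24 NRF2 genes fell (SLC7A11, PGD and SRXN1), 1 of 18 interferon genes rose (OAS1) and 1 of 20 immediate early genes fell (EGR1). The cholesterol and Notch lists had 1 gene called in each direction, while the inflammation list had 0 called and a median of 0.30. Of all genes, 3.33% were called higher and 3.43% lower without S1, to be set beside each of these counts, tight junction genes included. Retinoic acid genes had a median of -0.20 over 15 with 0 called, and 4 fell without S1 (3.43% of all genes did so). CYP26A1, which degrades retinoic acid, had a change of -0.71 (adjusted p = 0.27), and without S1 of -0.80 (adjusted p = 0.0366).

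Few of the listed markers of other cell types passed the filter on low values. The fibroblast list had 4 genes tested with a median of -0.30, the leukocyte and endothelial list had 5 with a median of 0.17, and the ionocyte, neuroendocrine and tuft cell list had 3 with a median of -1.25, and 0 of these were called with all 4 animals. Without S1 the fibroblast median was -0.97 and 1 of 4 genes fell, against 3.43% of all genes. It was the collagen COL3A1 (-3.04, adjusted p = 0.00714), which had at most 40.8 normalized counts in any library. The summed fibroblast level was 400 to 736 in air and 575 to 695 in smoke at 5 days, and 655 to 705 in air and 559 to 702 in smoke after recovery. The summed leukocyte and endothelial level was higher. It was 3530 to 5070 in air and 2910 to 4300 in smoke at 5 days, and 2530 to 3710 in air and 3050 to 5550 in smoke after recovery. The ionocyte, neuroendocrine and tuft median rested on S1, at -2.98, and was 0.17 without it.

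**Figure D4:**
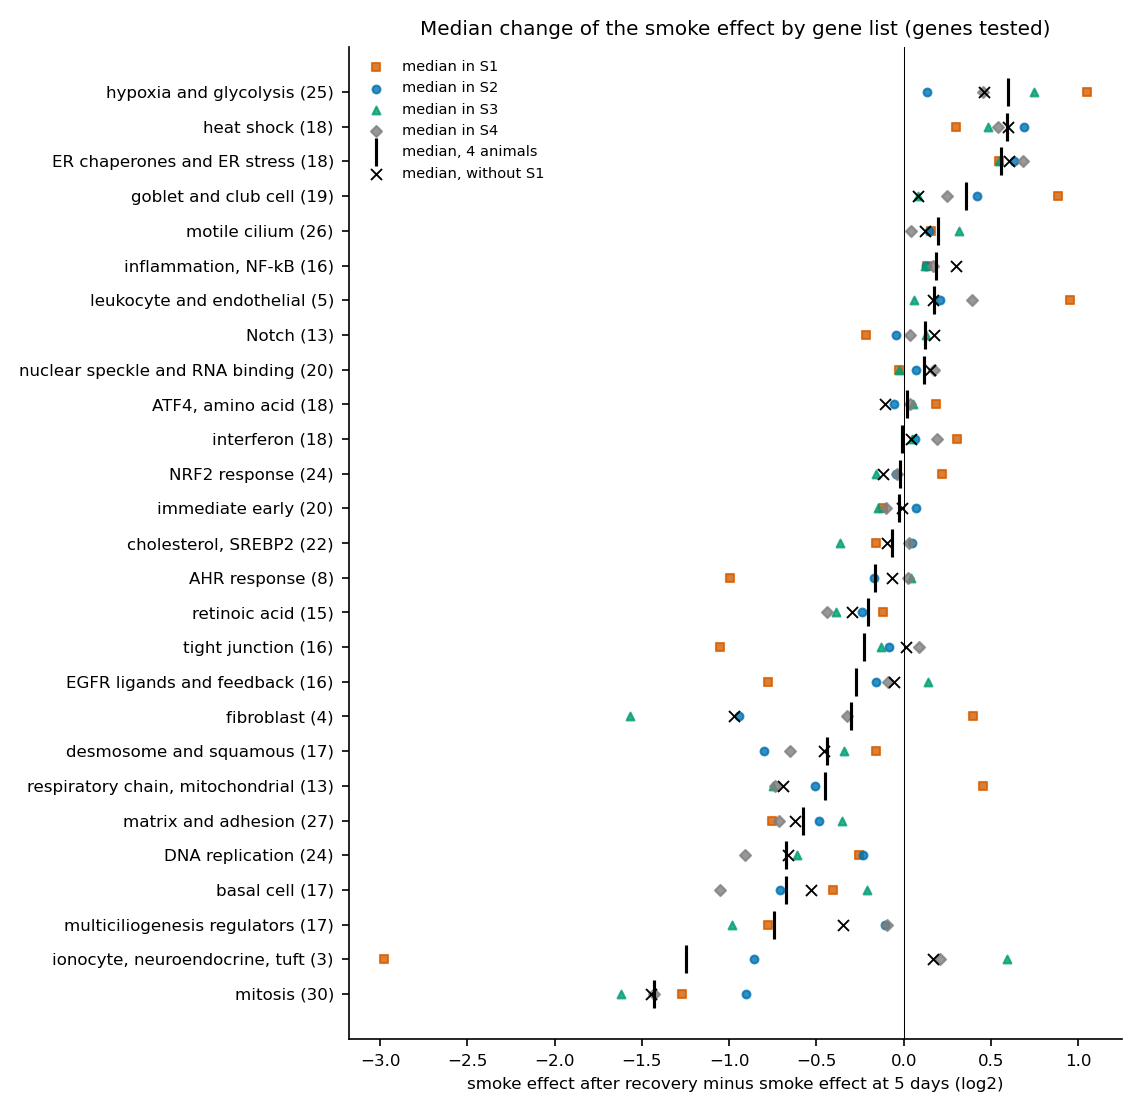
Median change of the smoke effect (log2) for each gene list, with the number of genes tested in brackets. Coloured points are the medians in each animal, bars the median over 4 animals and crosses the median without S1. The 4 animals lie on the same side of 0 for ER chaperones and for mitosis. They also do so for many other lists, among them basal cell, matrix and adhesion, hypoxia, heat shock and interferon. S1 lies apart for the mitochondrial genes (0.46).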

How the data were processed

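Poly-A RNA was sequenced from 1 culture per animal and group. Reads were handled with FastQC, Trim Galore, Bowtie2 and RSEM, per the submitters' processing notes. The genome build, annotation and normalizing step: not given in the sources used here. The deposited table is labelled as raw counts but holds a normalized signal: its values are not whole and are on a common scale across libraries, so they are called normalized counts, no count model was used, and depths are approximate. Totals ran from 12.4 to 15.2 M (10 to the power of 6) per library. Values were analysed as log2(value + 1), which understates changes of low genes, with limma 3.58.1 in R 4.3.3 (intensity trend, animal as an additive block, two-sided, Benjamini-Hochberg adjustment over 13795 genes, 9 residual degrees of freedom). Without S1 there were 6. Genes were kept with a value of at least 10 in 4 libraries, and called at an adjusted p under 0.05. Errors are standard errors. Pairing comes from the animal labels. Deviations from group means correlated at 0.303 to 0.724 within an animal (24 pairs) and at -0.394 to 0.0161 between animals in other groups (72 pairs). Where the first values are positive, subtracting the mean of 4 animals pulls the second below 0, so the second are not separate support.

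The genes, the 27 gene lists and the exclusion of S1 were chosen with earlier results of these data known. Named genes had a symbol and a mean of at least 50: the 12 largest called changes in each direction, the 3 list members with the smallest p, and a fixed set. Some items are not reported here. Genes named in other ways were chosen after their values were seen. The 8 libraries of the 1-day exposure entered only 1 alternative. The fitting was tested on simulated data. Gene names come from the table (23817 of 35432 genes) and from a reference list of names (720 more).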

Additional observations from a re-analysis of the deposited data

Results flagged for a closer look

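Outlying values were sought in 124 sets of 4 libraries, and 13 were found where the highest or lowest library stood apart from the rest. Dixon's 95% criterion was used, which chance exceeds in about 1 of 20 sets. The 5-day air library of S1 accounted for 6 of the 13: its approximate depth (9.46 M reads), mitochondrial share (8.49%), share of the 10 highest genes (18.2%), median correlation (0.861), FKBP4 (3291 normalized counts) and NOS2 (548). NOS2 was also apart in S1 in air (817) and smoke (836) after recovery. The other outlying values were RSRP1 (169) in S2, EIF4A2 (3234) in S3 and SAP30 (83.7) in S4, each in air after recovery, and CYP1B1 (148) in S2 and CRELD2 (793) in S1, each in smoke at 5 days. The change of CYP1B1 was smallest in S2, and that change is itself computed in part from this outlying value.

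The effect of smoke differed between 5 days and recovery in 32 of the 96 named genes, by the test of the difference itself. Over all genes tested, 88 of 13795 (0.638%) did so. Genes were named in part because they were called or had the smallest p of their list. The share among the named genes therefore reflects that choice and is not a result. The log2 changes above 0 were RSRP1 2.44, PFKFB4 2.27, SAP30 2.00, PPP1R3G 1.98, CRELD2 1.84, RCOR2 1.54, AGR3 1.32, BANP 1.27, FKBP4 1.25, SLC16A3 1.24, PPP1R3F 1.23, INSIG2 1.23, EGLN3 1.17, PDIA4 1.15, EIF4A2 1.01, DNAJA1 0.91, HYOU1 0.85, SERPINH1 0.81 and EPHA2 0.64. Those below 0 were MKI67 -3.39, NOS2 -2.60, CYP1B1 -2.57, LRRC4 -1.97, CDC25B -1.94, SLC7A5 -1.92, HAS3 -1.80, TFCP2L1 -1.79, TFRC -1.63, SLC6A9 -1.54, SLC7A1 -1.53, HNRNPDL -1.08 and EMP1 -1.04. All had the same sign in 4 of 4 animals, which choosing called genes favours. The calls of RSRP1, PFKFB4, LRRC4, EIF4A2, HYOU1, PDIA4, CRELD2, BANP, HNRNPDL and SAP30 held when any single library was left out, and 0 of the 32 held through the omission of every animal in turn.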

How the results depend on the processing

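The count of called genes depended on the fit. Of the 88 calls, 1 was kept with no replicate block and 0 with 1 value per animal. Without S2, S3 or S4, 2, 1 and 0 of them were kept. In any setting tried 0 had the opposite sign, but this says little. All 88 had the same sign in 4 of 4 animals, so leaving out an animal could not reverse them. Settings that alter only the error or the threshold keep the estimate. Counts below are in the order change of the smoke effect (88), smoke against air at 5 days (6) and after recovery (85), and recovery against 5 days in air (2078) and in smoke (523). With no replicate block, so that the pairing by animal was ignored, they were 1, 2, 3, 450 and 6, and the change without S1 (933) gave 15. With the animal block as a random effect, 24, 43 and 191 were called at 5 days, after recovery and in smoke over time. With 1 value per animal, where each gene is tested on 4 values, they were 0, 0, 2677, 4 and 1978. At an unadjusted p under 0.05, limma had 2081 and 804 genes in this setting for the first and second, and 861 to 1129 for recovery without S2, S3 or S4, where 0 were called.

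Fitting all 24 libraries with the animal block gave 505, 242, 489, 4008 and 1137, and weighting libraries gave 1610, 887, 2503, 4176 and 3556. With no filter on low values the change gave 48 (325 without S1), recovery 42 and smoke over time 269, and a filter of 50 gave 42 at 5 days. Equal totals gave 49 after recovery. An adjusted p under 0.1 gave 242, 95, 275, 3586 and 983, and an added log2 minimum of 1 gave 51, 3, 29, 569 and 173. Leaving out one animal gave 0 to 933, 1 to 360, 0 to 2185, 382 to 3128 and 3 to 2486. Leaving out one library gave 13 to 1251, 1 to 642, 7 to 2362, 773 to 3364 and 90 to 3480, the highest each without the 5-day air library of S1. An alternative chosen after seeing the data left out that library together with S2, S3 or S4: it gave 672, 363 and 176 for the change, 479, 30 and 47 at 5 days, 1431, 976 and 642 after recovery, and 3513, 1696 and 1664 in smoke over time.

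Of the 96 named genes, 1 reversed: PDGFRA, not called at -0.30, ran from -0.425 to 0.00928 when libraries were left out, the last with S2 and air at 5 days of S1 both out. Of 27 list medians, 11 changed sign in some setting. With equal totals the median change of all genes was -0.0602. The depth behind single values is approximate, and 4 animals with 1 culture each per group limit the precision. The p-values of the main fit rest on the spread left after group and animal, pooled over the 4 groups. The spread of the change between the 4 animals is what the setting with 1 value per animal tests, and it called 0 genes for the change.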

Other observations

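Several further called genes, chosen here after their values were seen, can be grouped by what they do. Here too, rose and fell refer to the smoke effect and not to the level. Among those that fell were genes of ribosome production in the nucleolus, NCL (nucleolin, -0.56) and NOL6 (-0.96), and CTPS1 (-0.93), which makes the nucleotide CTP. SLC20A2, a phosphate importer (-1.07), SLC7A8, an amino acid exchanger (-0.88), and AQP3, a water and glycerol channel of basal cells (-0.91), fell with the transporters named above. FKBP5, a co-chaperone of HSP90 that glucocorticoids induce, fell by 0.99, in the opposite direction to FKBP4, the related co-chaperone. The smoke effect of CEMIP, which degrades hyaluronan, fell by 1.50 beside that of the synthase HAS3. The smoke effect of HLF, a circadian output transcription factor, fell by 1.24, and that of ALOX15B, a lipoxygenase, by 1.23. Over time the level of CEMIP was higher by 2.53 in air and 1.03 in smoke, and that of HLF by 1.67 and 0.43.

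Among those that rose were METTL3, the catalytic subunit of the enzyme that methylates adenosine in mRNA (0.90), INSIG2, which holds back cholesterol synthesis (1.23), and PPP1R3G and PPP1R3F, glycogen-targeting subunits of a protein phosphatase (1.98 and 1.23). The histone gene HIST1H2AC rose by 0.97, but it belongs to a family of near-identical genes whose reads may be shared, so the value is uncertain.

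WDR13 had a change of -0.77 that was not called (adjusted p = 0.0564; without S1 -0.88, adjusted p = 0.00109). ELMO1 had a change of 0.33 and was not called.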
